A study of Mus musculus with 8 samples.

Results

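The cyclin-dependent kinase inhibitor genes of the mouse were followed through liver regeneration in animals with and without a Survivin deletion. The members were the 8 genes Cdkn1a, Cdkn1b, Cdkn1c, Cdkn2a, Cdkn2b, Cdkn2c, Cdkn2d and Cdkn3. The rule took them by name, through the RefSeq transcript that the array gives for each probe. It uses no measured value, but the members were chosen with earlier results of these data known. They were read by 10 of the 41056 probes kept and make up 8 of the 18316 genes named on the array. Cdkn1b and Cdkn3 had a pair of probes each, and the other genes had 1 probe each. In the tests, 7 of the 8 entered among 14141 genes. Cdkn2a did not, because its probe was not well above background on any of the 8 arrays.

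Liver RNA was hybridised to 1-colour (Cy3) Agilent whole-genome arrays, 1 array for each genotype and time. The Mxcre+ livers, described in the series design as Survivin deleted, were sampled at 0, 24, 36 and 48 h after partial hepatectomy (PHx), and so were the Mxcre- livers, described as wild type for Survivin. Both genotypes were of strain 129/SV/B6 and both had undergone irradiation and marrow transplantation before poly(IC), which all animals received about 1 week before sampling, so these exposures are common to the Mxcre- livers too. Mxcre is a Cre recombinase driven by the interferon-inducible Mx1 promoter, which acts in hepatocytes and in other cells of the liver and blood. The labels give no age, list the sex as male or female without assigning it, and do not say how many animals an array stands for, what genotype the donor marrow had or which Survivin allele was used. The title times were used, since the treatment label names a later analysis and does not match them.

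The inhibitors hold back the kinases that drive the cell cycle. The Cip/Kip proteins (Cdkn1a, Cdkn1b, Cdkn1c, which encode p21, p27 and p57) bind cyclin-CDK complexes broadly, while the Ink4 proteins (Cdkn2a, Cdkn2b, Cdkn2c, Cdkn2d) bind Cdk4 and Cdk6 and keep them from D-type cyclins. Cdkn3 encodes a phosphatase that removes the activating phosphate from CDKs. After PHx, hepatocytes that were at rest enter the cell cycle largely in step, and p21 is a well known brake on their entry into S phase in this model.

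Sequences before the start of transcription are shown for 4 genes of different course. These are Cdkn1a, which was higher than at 0 h from 24 h on, and Cdkn2c, Cdkn2d and Cdkn3, which were highest at 48 h. RefSeq promoters (GRCm38.p6) were given for 7 of the 8 genes, all but Cdkn1c, and the 250 bases before each start were searched on both strands. Capitals mark every match to the cell cycle homology region (CHR, TTTGAA), to an E2F-like motif (TTTNNCGC), to the CCAAT box (CCAAT) and to the p53 half-site. Of 32851 promoters searched over the same length, 15.99% held the CHR letters, 4.28% the E2F-like letters, 33.85% a CCAAT box and 7.126% a p53 half-site. The stretches lie at chr17:29090729-29090978, plus strand, for the first of 2 listed starts of Cdkn1a, at chr4:109666757-109667006, minus strand, for the first of 2 listed starts of Cdkn2c, at chr9:21291210-21291459, minus strand, for Cdkn2d, and at chr14:46760291-46760540, plus strand, for Cdkn3.
Cdkn1a: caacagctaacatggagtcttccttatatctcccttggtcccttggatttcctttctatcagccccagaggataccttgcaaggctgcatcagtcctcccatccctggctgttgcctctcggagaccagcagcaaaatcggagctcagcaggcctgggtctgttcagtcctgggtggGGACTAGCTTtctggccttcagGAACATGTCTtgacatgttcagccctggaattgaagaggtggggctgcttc
Cdkn2c: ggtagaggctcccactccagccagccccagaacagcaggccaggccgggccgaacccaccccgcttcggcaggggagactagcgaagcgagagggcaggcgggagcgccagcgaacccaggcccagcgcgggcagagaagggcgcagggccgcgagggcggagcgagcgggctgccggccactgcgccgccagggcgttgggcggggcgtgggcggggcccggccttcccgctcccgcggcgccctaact
Cdkn2d: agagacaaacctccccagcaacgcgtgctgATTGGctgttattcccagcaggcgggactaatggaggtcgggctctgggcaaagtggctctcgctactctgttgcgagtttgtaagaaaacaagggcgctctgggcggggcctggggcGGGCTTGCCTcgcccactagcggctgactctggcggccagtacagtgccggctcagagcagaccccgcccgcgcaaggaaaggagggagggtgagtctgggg
Cdkn3: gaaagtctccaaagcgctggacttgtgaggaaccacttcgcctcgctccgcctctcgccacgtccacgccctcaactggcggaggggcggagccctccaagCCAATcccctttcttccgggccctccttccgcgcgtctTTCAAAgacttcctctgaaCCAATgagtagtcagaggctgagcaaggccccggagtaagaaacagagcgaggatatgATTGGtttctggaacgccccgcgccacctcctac
The Cdkn3 stretch held 3 CCAAT boxes, beginning 149, 92 and 34 bases before the start, and 1 CHR match on the reverse strand at 111 bases. The Cdkn1a stretch held 2 p53 half-sites, at 73 and 51 bases, and no CHR, E2F-like or CCAAT match. That before the second listed start of Cdkn1a, which is not printed, held none of these 4 motifs, and which start the array probe reads was not examined. The Cdkn2d stretch held 1 CCAAT box and 1 p53 half-site, and the Cdkn2c stretch held none of these motifs. Of the genes searched but not printed, Cdkn2b held 1 CHR match, at 161 bases on the reverse strand. Cdkn1b held 2 CCAAT boxes, and each of the 2 listed starts of Cdkn2a held 1 E2F-like match. The CHR and CCAAT letters were thus not particular to Cdkn3. A GC box (GGGCGG, left in lower case, in 32.74% of all promoters) occurred 3 times each in the Cdkn2c and Cdkn2d stretches and 1 time in that of Cdkn3. Of the stretches not printed, that of Cdkn1b held 1, and the first listed start of Cdkn2a and the second of Cdkn1a held 2 each. The starts are those of the promoter table, and the gene table of the same build begins Cdkn2d and Cdkn3 further upstream, so that 212 of the 250 Cdkn2d bases and 80 of the Cdkn3 bases lie inside the gene as bounded there. These are matches of letters, and no binding was measured.

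Of the spots of each array, 60.2% to 66.0% were well above background and none was saturated. All 5 hepatocyte markers measured were above background on every array, with a summed level of 10.36 to 10.67. Levels are log2 of the background-subtracted Cy3 signal minus the 75th percentile over the probes of its array, and levels of different probes are not compared. Birc5, which encodes Survivin, was at -2.75, -3.42, -1.51 and -1.14 on the Mxcre+ arrays of 0, 24, 36 and 48 h, against -0.20, -0.48, 1.61 and 5.10 on the Mxcre- arrays, lower in Mxcre+ at every time. The 0 and 24 h arrays lay on 1 slide and the 36 and 48 h arrays on another, so time and slide cannot be told apart in the changes of 36 and 48 h against 0 h. Of 4 Y-linked genes, 3 were above background on the Mxcre+ array of 24 h and all 4 on the Mxcre- arrays of 24, 36 and 48 h (mean level -1.49 to -0.69), and 0 were on the 0 h arrays and on the Mxcre+ arrays of 36 and 48 h (mean level -6.57 to -6.04). Y-linked signal and time therefore cannot be told apart in the change at 24 h against 0 h, nor Y-linked signal and genotype at 36 and 48 h. A Y-linked covariate was fitted in the comparison of genotypes over all times only.

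**Figure D1:**
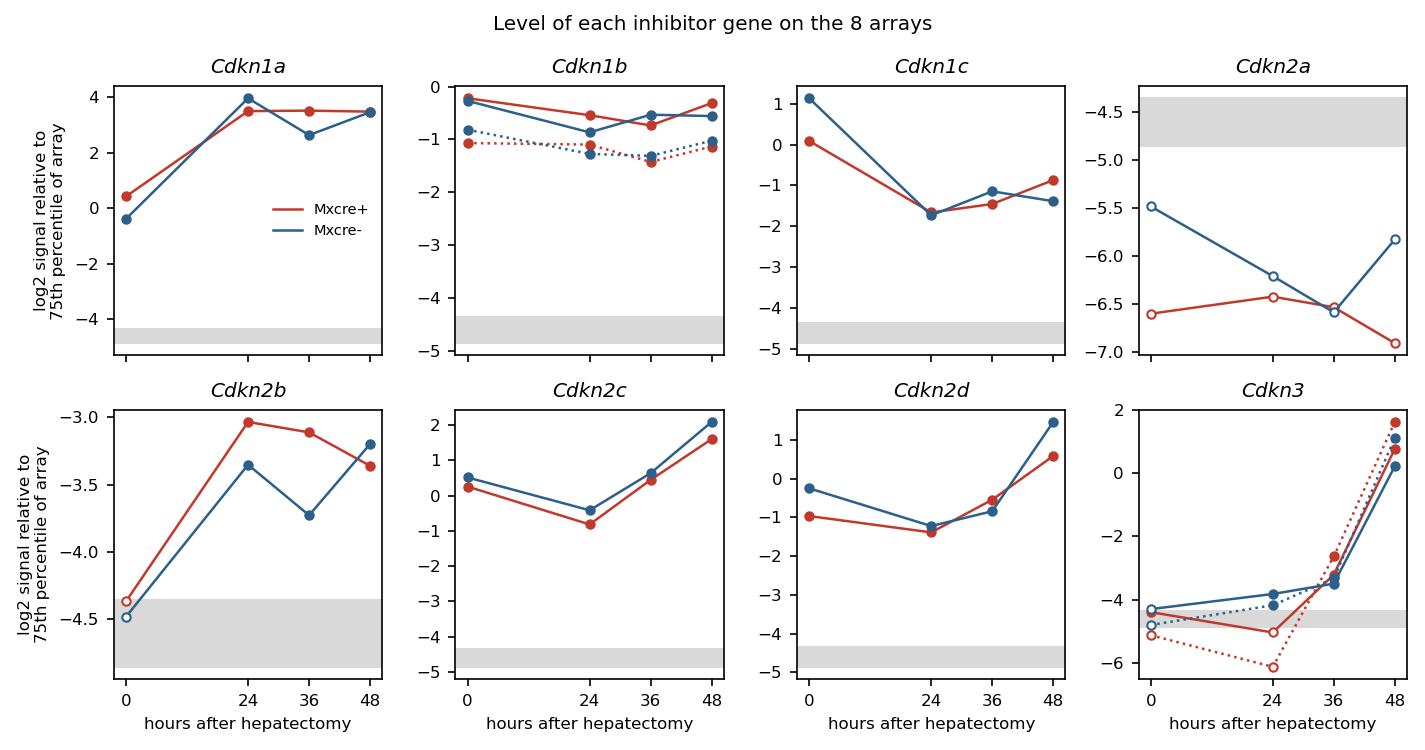
Level of each inhibitor gene (log2 signal minus its array’s 75th percentile) against hours after PHx, on Mxcre+ (red) and Mxcre- (blue) arrays, 1 array per point. Open points are not well above background, dotted lines are the second probe of Cdkn1b and Cdkn3, the grey band is the range over arrays of the lowest signal well above background, and each panel has its own scale. Cdkn1a is high and Cdkn1c low at 24, 36 and 48 h, Cdkn2c and Cdkn2d dip at 24 h and are highest at 48 h, and Cdkn3 is high at 48 h alone.

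The changes after PHx were fitted over both genotypes together with limma, with time and genotype as terms, and a gene was called at a Benjamini-Hochberg adjusted p under 0.05 over all 14141 genes. With 1 array per group, each change at a time rests on 2 arrays, and the error measures how alike the change was in the 2 genotypes and not the spread between animals. At 24 h, 4 of the 7 inhibitor genes tested were called, with Cdkn1a and Cdkn2b higher and Cdkn1c and Cdkn2c lower than at 0 h, where 9.68% of all genes were called (4.59% higher, 5.09% lower). At 36 h, 3 of 7 were called, with Cdkn1a and Cdkn2b higher and Cdkn1c lower, where 16.3% of all genes were called (8.1% higher, 8.15% lower). At 48 h, 6 of 7 were called, 5 higher (Cdkn1a, Cdkn2b, Cdkn2c, Cdkn2d and Cdkn3) and Cdkn1c lower, where 17.6% of all genes were called (8.27% higher, 9.34% lower). Between 48 and 36 h none of the 7 was called, where 0.106% of all genes were. Cdkn2b reached the tests, which required a signal well above background on at least 2 arrays, only through arrays after PHx. Its calls against 0 h are therefore no separate support, and those at 24 and 36 h ended without this filter (limma adjusted p = 0.0596 and 0.0661). The inhibitors thus did not move together, and both directions occurred within the Cip/Kip genes. Without any 1 array, which leaves 2 residual degrees of freedom, 0 or 1 of the genes was called at 24 and at 36 h and 0 to 5 at 48 h, while all genes called fell to 0 to 514 at 24 h, 0 to 903 at 36 h and 86 to 1470 at 48 h, against 1369, 2298 and 2490 with all arrays.

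Cdkn1a, on chromosome 17, encodes p21, the inhibitor through which p53 halts the cell cycle. It was read by 1 probe spotted 10 times on each array, with a standard deviation between spots of 0.03 to 0.07. Its level was 0.43, 3.50, 3.52 and 3.48 on the Mxcre+ arrays of 0, 24, 36 and 48 h, and -0.38, 3.96, 2.63 and 3.46 on the Mxcre- arrays. The 6 arrays after PHx were all above the 2 at 0 h, and the Mxcre+ arrays of 24, 36 and 48 h lay within the range of the Mxcre- arrays of those times. Cdkn1a rose by 3.71 ± 0.37 at 24 h (log2, SE here and below; 13.1-fold, limma adjusted p = 0.0197), by 3.05 ± 0.37 at 36 h (8.30-fold, adjusted p = 0.0206) and by 3.45 ± 0.37 at 48 h (10.9-fold, adjusted p = 0.0129). Between 48 and 36 h the difference was 0.40 (adjusted p = 0.775). Leaving out 1 array at a time kept the change at 24 h between 3.19 and 4.23, at 36 h between 2.67 and 3.43 and at 48 h between 3.12 and 3.78. It was then called without 2 of the 8 arrays at 24 h (the 48 h arrays), without the same 2 at 36 h and without 4 at 48 h (the 24 and 36 h arrays), with adjusted p up to 0.143, 0.107 and 0.0754 at the 3 times. Under another background correction, normexp with an offset of 50, the call at 36 h ended (2.48, adjusted p = 0.0591).

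Cdkn1b, on chromosome 6, encodes p27, which is kept in check mainly through the turnover of its protein. Its brighter probe had a level of -0.22, -0.54, -0.73 and -0.31 on the Mxcre+ arrays and -0.27, -0.87, -0.53 and -0.56 on the Mxcre- arrays (0, 24, 36 and 48 h). The other probe, spotted 10 times, ran from -1.43 to -1.07 on Mxcre+ arrays and from -1.31 to -0.82 on Mxcre- arrays. Both probes thus stayed within a narrow range on all 8 arrays. The differences of the brighter probe were -0.46 ± 0.17 at 24 h (adjusted p = 0.151), -0.39 ± 0.17 at 36 h (adjusted p = 0.166) and -0.19 ± 0.17 at 48 h (adjusted p = 0.456), and none was called. Those of the other probe were -0.24, -0.43 and -0.14, none called. The 95% interval of the difference at 24 h, from -0.90 to -0.02, leaves room for a moderate decrease.

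Cdkn1c, on chromosome 7, encodes p57, an imprinted inhibitor best known for its part in development. Its level was 0.09, -1.66, -1.45 and -0.87 on the Mxcre+ arrays of 0, 24, 36 and 48 h, and 1.14, -1.73, -1.14 and -1.38 on the Mxcre- arrays. All 6 arrays after PHx were below both 0 h arrays. Cdkn1c fell by 2.31 ± 0.38 at 24 h (4.95-fold, adjusted p = 0.0344), by 1.91 ± 0.38 at 36 h (3.76-fold, adjusted p = 0.0390) and by 1.74 ± 0.38 at 48 h (3.34-fold, adjusted p = 0.0429). The direction of Cdkn1c was thus opposite to that of Cdkn1a at each time. Leaving out any 1 array ended the call at all 3 times (adjusted p 0.0507 to 0.186 at 24 h, 0.0522 to 0.169 at 36 h and 0.0646 to 0.164 at 48 h), and the change without the Mxcre- 0 h array was -1.74, -1.34 and -1.17. Without a filter on dim genes the adjusted p was 0.0538, 0.0594 and 0.0621, and under normexp the changes were -0.93, -0.99 and -1.05 (adjusted p = 0.493, 0.319 and 0.213).

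Among the Ink4 genes, 3 of which lie on chromosome 4 (Cdkn2a, Cdkn2b and Cdkn2c), the levels differed in course. Cdkn2a encodes p16 and, from another reading frame, Arf, which stabilises p53. Of its 80 spots over the 8 arrays, 1 was well above background, and its level of -6.91 to -6.42 on Mxcre+ arrays and -6.59 to -5.48 on Mxcre- arrays lay below the lowest signal well above background. It was therefore not measurable at any time in either genotype at this sensitivity, and which of the products the probe reads was not examined.

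Cdkn2b encodes p15, an inhibitor induced by TGF-beta in several cell types. Its level was -4.37, -3.03, -3.11 and -3.36 on the Mxcre+ arrays of 0, 24, 36 and 48 h, and -4.49, -3.35, -3.73 and -3.20 on the Mxcre- arrays. It was not well above background on either 0 h array and was above it on the other 6. The folds are therefore bounds against the background signal of the 0 h arrays: Cdkn2b was at least 2.25-fold higher at 24 h (adjusted p = 0.0359), at least 1.93-fold higher at 36 h (adjusted p = 0.0421) and at least 2.12-fold higher at 48 h (adjusted p = 0.0305). Under normexp the differences were -0.14, -0.64 and -0.73, and with outlying local backgrounds capped before normexp they were 0.23, 0.09 and 0.10 and none was called. The offset exceeded all but the highest signal of this probe, which ran from 14.5 to 50.3 intensity units. The calls at 24 and 36 h ended without any 1 of the 8 arrays (adjusted p 0.0526 to 0.187 and 0.0556 to 0.169), and that at 48 h ended without any but the 36 h arrays (up to 0.138). Without a filter on dim genes the adjusted p was 0.0596 at 24 h and 0.0661 at 36 h. The call at 36 h also ended with a variance trend (adjusted p = 0.0665) and when every probe was fitted separately (adjusted p = 0.0504).

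Cdkn2c encodes p18, an inhibitor of Cdk4 and Cdk6. Its level was 0.26, -0.82, 0.45 and 1.60 on the Mxcre+ arrays of 0, 24, 36 and 48 h, and 0.52, -0.42, 0.64 and 2.09 on the Mxcre- arrays. It was lowest at 24 h and highest at 48 h in both genotypes. Cdkn2c fell by 1.00 ± 0.13 at 24 h (2.00-fold, adjusted p = 0.0251), differed by 0.16 ± 0.13 at 36 h (adjusted p = 0.417) and rose by 1.46 ± 0.13 at 48 h (2.75-fold, adjusted p = 0.00953). Between 48 and 36 h, both on the same slide, it was 1.31 ± 0.13 higher (adjusted p = 0.0659, not called). That difference was called among genes above background on all 8 arrays (adjusted p = 0.0452) and with a variance trend (adjusted p = 0.0449). The call at 24 h ended without any 1 array (adjusted p 0.0505 to 0.154), and the call at 48 h was kept without 6 of the 8 arrays and ended without the Mxcre+ 0 h array (adjusted p = 0.0585) or the Mxcre- 48 h array (adjusted p = 0.0609). Under normexp the changes at 24 and 48 h were -0.46 and 1.19 and neither was called (adjusted p = 0.865 and 0.102).

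Cdkn2d, on chromosome 9, encodes p19, the fourth Ink4 protein. Its level was -0.96, -1.39, -0.54 and 0.59 on the Mxcre+ arrays of 0, 24, 36 and 48 h, and -0.25, -1.22, -0.84 and 1.47 on the Mxcre- arrays. The 48 h arrays were above all others and the 24 h arrays below all others. Cdkn2d rose by 1.63 ± 0.32 at 48 h (3.10-fold, adjusted p = 0.0333), while its differences of -0.70 ± 0.32 at 24 h (adjusted p = 0.214) and -0.09 ± 0.32 at 36 h (adjusted p = 0.861) were not called. The call at 48 h was kept without either 36 h array and ended without any other (adjusted p up to 0.153). It was also lost without a filter on dim genes (adjusted p = 0.0506) and under normexp (1.06, adjusted p = 0.240).

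Cdkn3, on chromosome 14, is itself a gene of dividing cells and encodes a phosphatase that acts on Cdk1 and Cdk2. Its brighter probe had a level of -4.39, -5.04, -3.21 and 0.77 on the Mxcre+ arrays of 0, 24, 36 and 48 h, and -4.30, -3.82, -3.49 and 0.22 on the Mxcre- arrays. Of these, the Mxcre+ 24 h array and the Mxcre- 0 h array were not well above background. The 48 h arrays stood far above the other 6 in both genotypes. Cdkn3 rose by 4.84 ± 0.44 at 48 h (28.7-fold, adjusted p = 0.00976), with 1 of the 2 arrays of 0 h above background. Its difference at 36 h was 1.00 ± 0.44 (adjusted p = 0.173), that at 24 h was -0.08 ± 0.44 (adjusted p = 0.921), and 48 h exceeded 36 h by 3.85 ± 0.44 (adjusted p = 0.0982, not called). The other probe, fitted among all probes, was below background on both 0 h arrays and was at least 58.4-fold higher at 48 h (adjusted p = 0.0156), and the probes correlated at r = 0.992 over the 8 arrays. The call at 48 h was kept without 5 of the 8 arrays and ended without the Mxcre+ 0 h array (adjusted p = 0.0631), the Mxcre- 48 h array (adjusted p = 0.0546) or the Mxcre+ 48 h array (adjusted p = 0.0501). Under normexp the change at 48 h was 1.16 and was not called (adjusted p = 0.248).

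**Figure D2:**
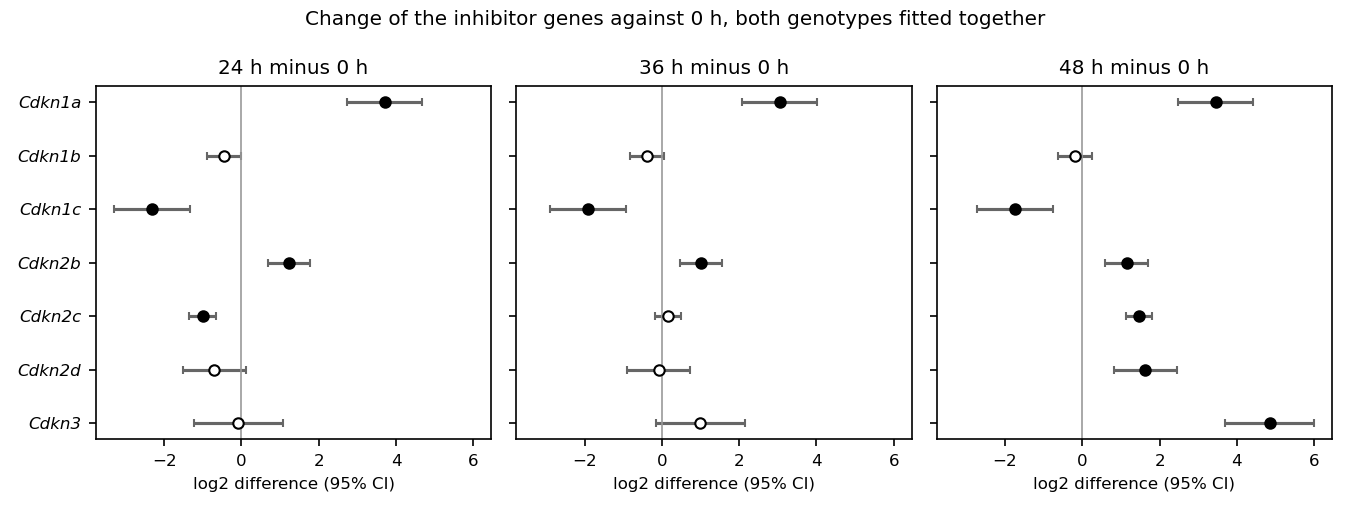
Fitted change of the 7 inhibitor genes tested at 24, 36 and 48 h against 0 h, in log2 units with 95% confidence intervals of the limma fit over 8 arrays. Filled points have an adjusted p under 0.05. Cdkn1a lies at 3.05 to 3.71 in all 3 panels, Cdkn1c at -2.31 to -1.74, and Cdkn3 stands out at 48 h alone, at 4.84.

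The members of the family followed a few courses, described here by the correlation of levels over the 8 arrays, which share times and slides. Cdkn1a and Cdkn2b ran together (r = 0.956) and Cdkn1a and Cdkn1c ran opposite (r = -0.959). Cdkn2c, Cdkn2d and Cdkn3 formed a set that was highest at 48 h (r = 0.950 for Cdkn2c with Cdkn2d, 0.888 for Cdkn2c with Cdkn3 and 0.890 for Cdkn2d with Cdkn3). Outside the family, the 3 genes of most similar course among 14140 were Exosc9 (r = 0.991), 1700017B05Rik and Slc12a4 for Cdkn1a, Oxld1 (r = 0.994), Prkag2 and 1810046K07Rik for Cdkn1c, and Sox9 (r = 0.992), Thyn1 and Dnajc10 for Cdkn2b. They were Pmf1 (r = 0.987), Snrnp25 and Rnaseh2b for Cdkn2c, Oxct1 (r = 0.978), Anln and Arhgef39 for Cdkn2d, and Ccnb2 (r = 0.991), Trim59 and Kif20a for Cdkn3. Many genes come close to such values with 8 arrays, with 109 genes over r = 0.95 for Cdkn1a and 4 for Cdkn2d. The correlations of Cdkn2b and Cdkn3 include arrays on which the gene was not well above background. These were both 0 h arrays for Cdkn2b, and the Mxcre- 0 h and Mxcre+ 24 h arrays for Cdkn3.

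Sox9, the gene closest to Cdkn2b, is a marker of bile duct and progenitor cells. The 7 markers of those cells include Sox9 itself, so their sum is not separate from it. Their summed level was 2.03 on the Mxcre+ and 2.56 on the Mxcre- array at 0 h. It was 3.71 to 4.58 on the later Mxcre+ arrays and 4.46 to 5.43 on the later Mxcre- arrays. The brightest markers weigh most in such a sum. The median of the 7 differed less, at -1.33 and -1.20 at 0 h against -0.69 to -0.26 and -0.48 to -0.19 later (Mxcre+ and Mxcre-). On each array 5 or 6 of the 7 markers were above background. Their part in the course of Cdkn2b was not tested. In whole liver, a change in the number of cells of a type and a change in RNA per cell cannot be told apart.

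The targets of the inhibitors were followed through a list of CDKs, cyclins and activating phosphatases, of which 17 of 20 genes were tested. At 24 h, 2 of the 17 were higher (Cdk6, by 0.92 ± 0.14, and Cdc25c, which was at least 2.66-fold higher) and none lower, with a median difference of 0.04 against -0.02 over all genes. The 2 of 17 at 24 h are near the 9.68% of all genes called at that time and are no result about the list. At 36 h, 6 were higher, and at 48 h, 9 were higher, with none lower at either time. Over all genes 8.1% and 8.27% were higher at 36 and 48 h. The medians of the list were 0.52 and 1.33 against -0.05 and -0.07 over all genes. Cdk1, the kinase of mitosis, was at -6.67, -6.49, -1.5 and 0.90 on the Mxcre+ arrays of 0, 24, 36 and 48 h, and at -6.35, -4.62, -0.85 and 0.96 on the Mxcre- arrays. It was not above background at 0 and 24 h and was at least 9.99-fold higher at 36 h (adjusted p = 0.0161) and at least 43.0-fold higher at 48 h (adjusted p = 0.00435) than at 0 h. Ccnb1, its mitotic cyclin, was at least 2.33-fold higher at 36 h (adjusted p = 0.0187) and at least 38.0-fold higher at 48 h (adjusted p = 0.00289), and 4.03 ± 0.30 higher at 48 than at 36 h (adjusted p = 0.0484). Ccna2, the cyclin of S phase and early mitosis, rose by 3.10 ± 0.20 at 36 h (adjusted p = 0.0124) and by 5.54 ± 0.20 at 48 h (adjusted p = 0.00179). Ccne1, the cyclin of entry into S phase, rose by 2.90 ± 0.46 at 36 h (adjusted p = 0.0281) and by 2.24 ± 0.46 at 48 h (adjusted p = 0.0379). Cdk4, the partner of the D-type cyclins, differed by 0.01 at 48 h (adjusted p = 0.976), and Cdk6 rose by 0.68 ± 0.14 (adjusted p = 0.0398). Cdk2, by its brighter probe, was not above background on any array, and Ccnd1 and Skp2 had no probe named here.

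**Figure D3:**
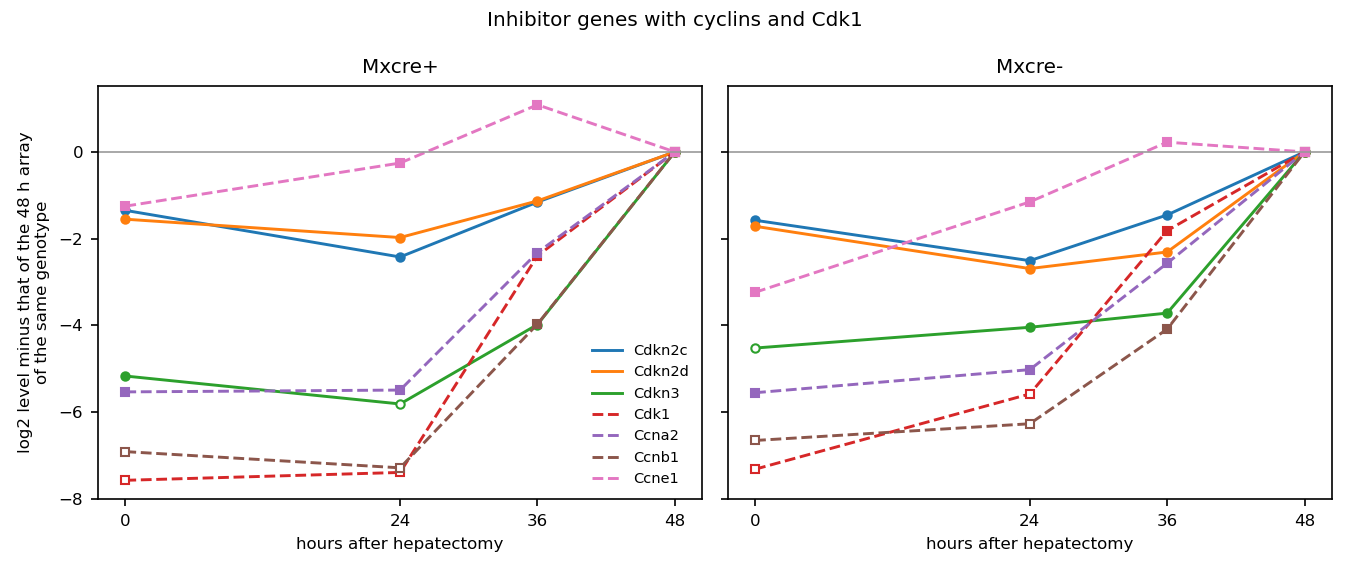
Log2 level minus that of the 48 h array of the same genotype, against hours after PHx, for Cdkn2c, Cdkn2d and Cdkn3 (solid lines, circles) and for Cdk1, Ccna2, Ccnb1 and Ccne1 (dashed lines, squares), on Mxcre+ (left) and Mxcre- arrays (right), 1 array per point. Open points are not well above background. Cdkn3 and Ccnb1 have most of their increase between 36 and 48 h, while Ccne1 is at its highest at 36 h in both genotypes.

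Cdk1 and Ccna2 had thus been called at 36 h, when Cdkn3, Cdkn2c and Cdkn2d had not. The other Cdkn3 probe was at least 2.86-fold higher at 36 h, also not called (limma adjusted p = 0.113). Whether these genes differed in their change at 36 h was not tested. The pocket proteins and E2f factors, which act below the CDKs, had 0 of 13 genes higher and 1 lower at 24 h (Rbl2, by -1.20 ± 0.18, which encodes the pocket protein of resting cells), a share near the 9.68% of all genes called. They had 5 higher and 1 lower at 36 h, where 16.3% of all genes were called, and 4 higher at 48 h, where 17.6% were. The largest at 36 h were Rbl1 at 2.48 ± 0.43, E2f2 at 2.22 ± 0.27 and E2f7 at 2.12 ± 0.24. At 48 h Rbl1 was at 2.86 ± 0.43, E2f2 at 2.42 ± 0.27 and E2f7 at 2.20 ± 0.24. A list of 14 genes of proliferation had 13 higher at 36 h and at 48 h and 0 called at 24 h, where 8.1%, 8.27% and 4.59% of all genes were higher.

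Of 20 other p53 targets, 4 were higher at 24 h, 5 were higher and 2 lower at 36 h, and 11 were higher at 48 h, with medians of 0.38, 0.66 and 0.82. Over all genes 4.59%, 8.1% and 8.27% were higher at these times, with medians of -0.02, -0.05 and -0.07. At 24 h these were Gdf15, a stress-induced secreted factor (2.22 ± 0.36, adjusted p = 0.0337), the death receptor gene Tnfrsf10b (at least 2.05-fold higher, adjusted p = 0.0179), the antiproliferative gene Btg2 (1.41 ± 0.18, adjusted p = 0.0251) and Plk2 (0.91 ± 0.15, adjusted p = 0.0346). At 48 h the largest were Tnfrsf10b (at least 4.12-fold), the receptor gene Eda2r (at least 4.96-fold) and Phlda3, an inhibitor of Akt (2.34 ± 0.30, adjusted p = 0.0160), and Mdm2, which encodes the ubiquitin ligase of p53, rose by 0.74 ± 0.16 (adjusted p = 0.0390). The genes lower at 36 h were Bbc3, which encodes the cell death protein Puma (-1.27 ± 0.22), and Sesn2 (-0.63 ± 0.11). Trp53 itself, the gene of p53, was at 1.42, 1.16, 1.00 and 1.00 on the Mxcre+ arrays of 0, 24, 36 and 48 h, against 1.35, 1.28, 1.08 and 0.97 on the Mxcre- arrays, a difference of -0.40 at 48 h that was not called (adjusted p = 0.0812).

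Of 20 genes that regulate transcription of the inhibitors, 0 were higher and 1 lower at 24 h, 3 were higher and 2 lower at 36 h, and 3 were higher and 1 lower at 48 h, with medians of 0.08, 0.16 and 0.07. These counts lie near the 9.68%, 16.3% and 17.6% of all genes called at the 3 times and are no result about the list. Cebpa, a factor that stabilises p21 in hepatocytes and restrains their growth, fell by 1.25 ± 0.20 at 24 h (adjusted p = 0.0322), by 1.12 ± 0.20 at 36 h (adjusted p = 0.0327) and by 1.50 ± 0.20 at 48 h (adjusted p = 0.0173). Foxm1, a driver of mitotic genes, rose by 1.63 ± 0.21 at 36 h and by 3.69 ± 0.21 at 48 h (adjusted p = 0.0218 and 0.00380), and Id1, which encodes an inhibitor of helix-loop-helix factors, rose by 2.95 ± 0.53 and 2.73 ± 0.53 (adjusted p = 0.0327 and 0.0333). Ezh2, the methyltransferase of Polycomb, which silences Cdkn2a in many tissues, rose by 1.45 ± 0.27 and 1.95 ± 0.27 (adjusted p = 0.0344 and 0.0179), and Cbx7, a Polycomb reader protein, fell by 1.94 ± 0.43 at 36 h (adjusted p = 0.0469). Of 14 genes of inhibitor turnover, 0 were called at 24 h, 3 were higher at 36 h and 4 at 48 h, with medians of 0.25, 0.29 and 0.14. The 3 of 14 at 36 h are near the 16.3% of all genes called at that time, and at 48 h 17.6% of all genes were called. The genes were Dtl, the receptor that targets p21 for destruction (at least 17.1-fold higher at 36 h and at least 9.75-fold at 48 h), its cofactor Pcna (1.87 ± 0.30 and 1.44 ± 0.30), Cks1b, which helps recognise p27 (1.59 ± 0.30 and 2.04 ± 0.30), and at 48 h Cks2 (1.15 ± 0.13).

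Between the genotypes, none of the 7 inhibitor genes was called over the 4 times, where 0% of all genes were called (0 of 14141, with 932 at an unadjusted p under 0.05 and the smallest adjusted p at 0.418). Birc5, the deleted gene, was not called either, at -3.71 ± 0.67 (13.1-fold lower in Mxcre+, limma unadjusted p = 0.00284, adjusted p = 0.750). The lack of a call in this comparison therefore does not show that a gene was alike in the genotypes. Cdkn2c was lower in Mxcre+ at each of the 4 times, by 0.26, 0.40, 0.19 and 0.49 at 0, 24, 36 and 48 h on the log2 scale, with a fitted difference of -0.33 ± 0.09 (unadjusted p = 0.0163, adjusted p = 0.750). Its interval, -0.58 to -0.09, is that of a small difference. For the other inhibitor genes the pairs of arrays lay on both sides of 0. Cdkn1a differed by 0.81, -0.46, 0.88 and 0.02 (fitted 0.31 ± 0.27, adjusted p = 0.795), and Cdkn2d by -0.72, -0.16, 0.30 and -0.88 (fitted -0.37 ± 0.22, adjusted p = 0.761). Cdkn1b gave 0.10 ± 0.12 with the brighter probe and -0.08 ± 0.11 with the other (adjusted p = 0.836 and 0.863). The interval for Cdkn1a, -0.38 to 1.00, covers a small decrease as well as a sizeable increase, so these arrays do not show that the genotypes were alike.

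At single times, with 1 pair of arrays and no test, Cdkn1c at 0 h was the 1 inhibitor gene that differed 2-fold or more on arrays above background. It was 2.06-fold lower on the Mxcre+ array, at 0.09 against 1.14 on the Mxcre- array, where 3.77% of all genes differed that much at 0 h, and -1.04 lay below the 5th percentile of all genes at that time (-0.73). The 0 h arrays also differed in neutrophil markers, whose 8 genes summed to 3.02 on the Mxcre+ and 6.03 on the Mxcre- array, with 7 and 8 of the 8 above background. Their part in the Cdkn1c difference was not tested. No inhibitor gene reached 2-fold at 24, 36 or 48 h on arrays above background, where 1.97%, 4.58% and 5.67% of all genes did.

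**Figure D4:**
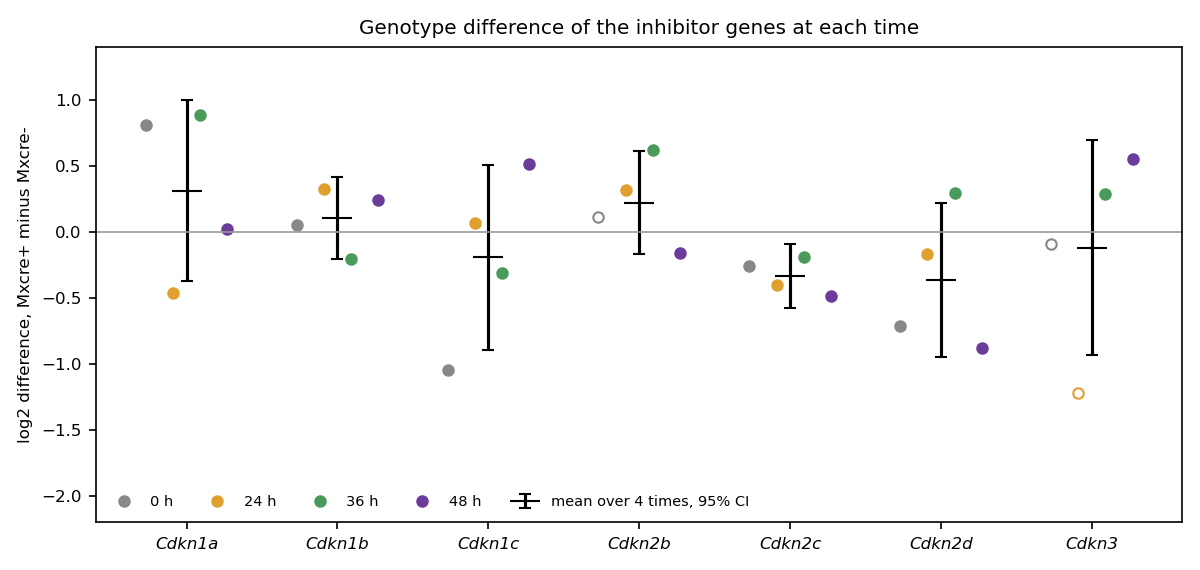
Mxcre+ minus Mxcre- difference in log2 level of the 7 inhibitor genes tested, 1 point for each pair of arrays at 0, 24, 36 and 48 h, with the mean over the 4 times and its 95% confidence interval in black. Open points are pairs with at least 1 array not well above background. The Cdkn2c points all lie below 0, between -0.49 and -0.19, and those of each other gene lie on both sides of 0.

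Whether the genotype difference at 36 and 48 h was other than at 0 and 24 h was asked with an interaction term (2 residual degrees of freedom), and 0% of all genes and none of the 7 inhibitor genes were called, with 1198 genes at an unadjusted p under 0.05. Cdkn3 had the smallest p among them: its level was higher in Mxcre+ by 0.29 and 0.55 at 36 and 48 h and differed by -0.10 and -1.22 at 0 and 24 h, a change of 1.07 ± 0.45 (unadjusted p = 0.0777, adjusted p = 0.608). The earlier pairs each held 1 array not above background. The level of Cdkn3 at 48 h was not lower on the Mxcre+ array, at 0.77 against 0.22 on the Mxcre- array, and its other probe gave 1.62 against 1.12. Over all genes, 43.7% had a fitted Mxcre+ minus Mxcre- difference above 0 over the 4 times, with a median of -0.03. Of the 14 genes of proliferation 0 did, with a median of -0.53, and of the 17 CDKs, cyclins and phosphatases 5 did, with a median of -0.09. None of them was called, and their part in the Cdkn2c difference was not tested.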

How the data were processed

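Total RNA of mouse liver was read on 8 Agilent 1-colour arrays, 1 per genotype and time. Per the file headers, the deposited scanner files hold fluorescence intensity per spot, and the processed signal is an intensity that the authors' scanner software had background-subtracted and detrended (Agilent Feature Extraction 10.7, per the submitters' processing notes). The authors also deposited log2 values as a table, whose scaling is not stated there. All 8 columns have the same median (5.51) and correlated at 0.999 or more with log2 intensity of their own array and at 0.984 or less with another. They were used as an alternative only.

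Control spots and spots marked as outliers were removed, which left 41056 of 41174 probes. RefSeq named 26839 probes (18316 genes), and the brightest probe stood for a gene. A probe was well above background where more than 50% of its spots were, and genes so on at least 2 arrays were tested. Values were log2 processed signal minus the 75th percentile over probes. A bound sets each dim array at the higher of its lowest signal well above background and the probe's own. Tests used limma 3.58.1 (R 4.3.3, with data.table version 1.17.8) with time and genotype as terms (3 residual degrees of freedom), and were checked on simulated data. Figures used matplotlib 3.10.9. Intensity means for normexp were absent, so medians were used. The number of arrays limits the precision. The labels do not say whether arrays stand for separate animals.

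The members, partner lists and named genes (all members, the 3 largest list changes, the 3 genes of most similar course for members spanning 1 log2 unit) were chosen with earlier results of these data known. Alternatives were other scaling, background, filter, probe and variance settings, the deposited table, each slide alone, Y-linked level as a covariate and leaving out each array. Capping local backgrounds at the 99th percentile was chosen after seeing the data.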

Additional observations from a re-analysis of the deposited data

Results flagged for a closer look

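A few differences between the genotypes in the course of an inhibitor gene call for a closer look. The genotype difference of Cdkn3 changed by 1.07 between the early (0 and 24 h) and late (36 and 48 h) pairs of arrays (log2), a difference tested with the interaction term and not called (limma adjusted p = 0.608), with 1 array of each early pair not above background. The others are cases in which the change between a pair of times had opposite signs in Mxcre+ and Mxcre-. Each rests on 1 array per point, and the difference was not tested. Between 24 and 0 h the change of Cdkn3 was lower in Mxcre+ than in Mxcre- by 1.12 (difference -1.12), but the Mxcre+ 24 h and Mxcre- 0 h arrays were not above background, so that opposite movement is not established. Between 36 and 0 h the change of Cdkn2d was higher in Mxcre+ by 1.01. Between 48 and 36 h the change in Mxcre+ minus that in Mxcre- was -0.86 for Cdkn1a, 0.45 for Cdkn1b, 0.83 for Cdkn1c and -0.78 for Cdkn2b. The Cdkn1a change was -0.036 in Mxcre+ and 0.83 in Mxcre-, and that of Cdkn1b was 0.42 and -0.025. For these genes 1 genotype hardly moved, so opposite movement is not established. The other probe of Cdkn1b did not move in opposite ways, with changes of 0.29 in Mxcre+ and 0.29 in Mxcre-. The Mxcre+ and Mxcre- arrays of 36 and 48 h also differed in Y-linked signal, whose part was not tested here.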

How the results depend on the processing

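Under quantile normalisation and with the deposited table, 40 of 42 results on the inhibitor genes kept their direction and side of the threshold, as did 36 of 42 with no filter on dim genes and 40 of 42 with a variance trend and robust moderation. The planned normexp correction, in which local backgrounds of up to 20990 units on 6 arrays shifted bright probes unevenly, kept 22 of 42 and called 32, 23 and 81 of all genes at 24, 36 and 48 h against 1369, 2298 and 2490 (75%, 87.0% and 87.7% of them higher, against 47.4%, 49.8% and 46.9%). With these backgrounds capped 33 of 42 were kept. The number of inhibitor genes called became 1, 0 and 1 at 24, 36 and 48 h under normexp and 2 and 1 at 24 and 36 h with no filter, which called 573, 938 and 1553 of all genes. With no filter Cdkn1c and Cdkn2d also lost their call at 48 h, and with the cap Cdkn2b lost its call at 24, 36 and 48 h. For 48 against 36 h, where 0 inhibitor genes had been called, the number became 2 with the cap, 1 among genes above background on all arrays and 1 with the variance trend. Genes called over the array at 24 h numbered 2152 with that trend, and for 48 against 36 h numbered 15, against 2 under quantile normalisation, the deposited table and no filter, 5 under normexp, 47 with the cap, 27 among genes above background and 23 with the trend. Leaving out 1 array at a time, whose lone partner was assumed to vary like the other groups, left 0 to 1 inhibitor genes called at 24 h, 0 to 1 at 36 h and 0 to 5 at 48 h. That loss ran over all genes and varied with the array left out. Such fits have fewer residual degrees of freedom, and the cause of the loss was not tested.

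Reversals under other settings had no tested cause and, except those of Cdkn2b against 0 h, concerned values that were not called. Under normexp the genotype difference became -0.11 for Cdkn1a, 0.18 for Cdkn1c and 0.39 for Cdkn3, Cdkn2b was at -0.14, -0.64 and -0.73 at 24, 36 and 48 h, Cdkn3 at -0.61 at 36 h, and for 48 against 36 h Cdkn1b was at -0.018, Cdkn1c at -0.064 and Cdkn2b at -0.10. With the cap the genotype difference was -0.0063 for Cdkn2b and 0.11 for Cdkn3. On slide 2 alone it was 0.10 for Cdkn1c and 0.42 for Cdkn3, and with the other probe of Cdkn1b it was -0.075. Cdkn3 at 24 h became 0.076 under quantile normalisation and 0.084 with the deposited table. The early to late change of the genotype difference became -0.011 for Cdkn2b under quantile normalisation and -0.0100 with the deposited table, 0.17 for Cdkn1b and -0.10 for Cdkn2d under normexp, and -0.14 for Cdkn2b and 0.019 for Cdkn2c with the cap. Leaving out 1 array gave ranges across 0 of -0.36 to 0.91 for that change in Cdkn1a, -0.39 to 0.058 in Cdkn1b, -0.38 to 0.40 in Cdkn2b, -0.16 to 0.14 in Cdkn2c and -0.44 to 0.74 in Cdkn2d. For 48 against 36 h they were -0.0059 to 0.40 for Cdkn1b, -0.30 to 0.64 for Cdkn1c and -0.12 to 0.40 for Cdkn2b, for Cdkn2d at 36 h -0.53 to 0.36, for Cdkn3 at 24 h -0.81 to 0.65, and for the genotype difference -0.43 to 0.092 in Cdkn1c and -0.34 to 0.25 in Cdkn3. The genotypes were compared within each time, since time was a term of the fit. Beyond that, no paired analysis was possible because the labels give no replicate numbers and each genotype and time had 1 array. Signal near background limits Cdkn2a, Cdkn2b and Cdkn3 before 48 h.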
